A study of Mus musculus with 51 samples.

Results

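Acetylated nucleophosmin (AcNPM1) was profiled in chromatin of mouse embryos at 24h, and the AcNPM1 peaks described overlap no peak of the repressive histone mark H3K27me3. A peak was taken when it shared no base with any peak of the H3K27me3 table for embryos of the same stage and groups, which left 2091 of 9602 AcNPM1 peaks (21.8%). The other 7511 peaks overlap H3K27me3 and serve as the comparison. All embryos are C57BL/6 mice. The groups are LoNA KO embryos given a p300 inhibitor (AcNPM1 only), LoNA KO embryos, and control embryos, with RNA of LoNA KO and control embryos at 18h, 20h, 22h and 24h. The labels' treatment field names the p300 inhibitor for every chromatin sample, whereas the sample titles name it for only one group, and the titles were followed. The labels give neither the allele nor the control genotype, nor how many embryos were pooled.

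Nucleophosmin is an abundant nucleolar protein and histone chaperone that takes part in ribosome assembly. It can be acetylated by the acetyltransferase p300, and the acetylated form is found in the nucleoplasm and has been linked to active transcription. LoNA is a long noncoding RNA of the mouse nucleolus that binds nucleolin and fibrillarin and restrains the production of ribosomal RNA. H3K27me3 is laid down by the Polycomb complex PRC2 and marks silenced developmental genes, whereas H3K4me3 marks promoters and, in early embryos, broad distal regions as well. The title of the series asks about recruitment of PRC2 by nucleophosmin, so peaks without H3K27me3 are the AcNPM1 sites at which no such mark was called.

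Some of these peaks lay on promoters, and 4 promoters are shown as examples, which do not cover every kind found. Commd3 and Mapk8 are CpG-rich and lay under a peak with H3K4me3, Sptssb is CpG-poor and also had H3K4me3, and Gata2 had a peak without H3K4me3. The Sptssb peak lay 365 bases from H3K27me3, and another AcNPM1 peak, with H3K27me3, lay within 1 kb of the Sptssb TSS. Each sequence is the RefSeq window of GRCm38.p6 from 250 bases before the gene's start to 50 after it, written along the gene's strand, with every CpG in capitals.
Commd3, chr2:18672185-18672484, plus strand: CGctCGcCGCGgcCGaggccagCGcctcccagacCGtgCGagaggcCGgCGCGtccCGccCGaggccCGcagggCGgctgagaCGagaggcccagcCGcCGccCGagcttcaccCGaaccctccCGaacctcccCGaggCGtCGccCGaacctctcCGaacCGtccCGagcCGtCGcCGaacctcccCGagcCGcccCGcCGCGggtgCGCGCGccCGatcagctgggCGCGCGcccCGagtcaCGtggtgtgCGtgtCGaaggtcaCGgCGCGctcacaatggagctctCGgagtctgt
Mapk8, chr14:33447109-33447408, minus strand: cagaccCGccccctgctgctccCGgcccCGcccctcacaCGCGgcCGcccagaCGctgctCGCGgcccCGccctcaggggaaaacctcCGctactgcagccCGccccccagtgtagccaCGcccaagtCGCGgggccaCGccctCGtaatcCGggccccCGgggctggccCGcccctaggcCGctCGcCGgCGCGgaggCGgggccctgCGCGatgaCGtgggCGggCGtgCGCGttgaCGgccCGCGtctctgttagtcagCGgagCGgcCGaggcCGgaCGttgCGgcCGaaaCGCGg
Sptssb, chr3:69859845-69860144, minus strand: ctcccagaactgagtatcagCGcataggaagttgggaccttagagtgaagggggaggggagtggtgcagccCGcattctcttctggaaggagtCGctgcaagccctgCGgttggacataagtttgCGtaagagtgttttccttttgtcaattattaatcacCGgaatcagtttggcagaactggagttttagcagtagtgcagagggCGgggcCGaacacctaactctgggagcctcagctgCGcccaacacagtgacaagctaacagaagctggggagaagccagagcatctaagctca
Gata2, chr6:88193641-88193940, plus strand: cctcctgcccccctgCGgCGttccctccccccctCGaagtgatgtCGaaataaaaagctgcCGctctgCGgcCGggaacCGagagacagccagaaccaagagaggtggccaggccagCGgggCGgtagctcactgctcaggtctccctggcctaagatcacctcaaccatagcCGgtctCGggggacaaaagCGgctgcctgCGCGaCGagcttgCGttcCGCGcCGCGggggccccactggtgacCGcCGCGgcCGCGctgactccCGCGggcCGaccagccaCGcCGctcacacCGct
Commd3 had 51 CpG in its window, Mapk8 45, Gata2 32 and Sptssb 9. The Gata2 count is far above the median of 9.5 in windows under a peak without H3K4me3, so it is not typical of them. The AcNPM1 peak covered 160 bases of the Commd3 window, 180 of the Mapk8 window and 251 of the Sptssb window, but only 28 bases at the upstream end of the Gata2 window. The sequences of the peaks themselves were not analysed here.

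Over the series, 255 RefSeq coding promoter windows of 236 genes overlapped an AcNPM1 peak without H3K27me3. They held a median of 20 CpG, against 19 in 1566 windows under an AcNPM1 peak with H3K27me3 and 13 in all 21263 coding windows. Median GC was 63.3% under peaks of either class and 56.3% over all windows. The CpG content followed H3K4me3. Windows under a peak with H3K4me3 (231) held a median of 21 CpG, and the 24 windows under a peak without H3K4me3 held 9.5. Motifs were searched on both strands, and all but CCAAT contain a CpG and so share letters with it. The SP and KLF motif GGGCGG was found in 69.4% of windows under peaks without H3K27me3, in 63.9% under peaks with it and in 46.2% of all windows. The NRF1 motif was in 8.63%, 3.32% and 6.38% in the same order, and the ETS motif CCGGAAG in 8.63%, 4.53% and 11.6%. The E-box CACGTG was in 10.2%, 9.51% and 7.84%, the CCAAT box in 36.9%, 30.7% and 38.2%, and the cyclic AMP element TGACGTCA in 1.57%, 1.79% and 2.23%. These are matches of letters, and binding was not measured.

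The AcNPM1 table holds 1 value per condition, made from 60297174 reads in LoNA KO and 32077472 in control embryos. The labels list 3 AcNPM1 samples per condition, and whether the column is 1 of them or a pool is not stated. Chromatin values therefore have no replicate error and no test, and intervals on them cover counting error only. Columns of both histone tables are headed by initials only, and which is LoNA KO and which control was read from how each title and ratio are written. RNA libraries held 12077497 to 18286944 counts. At 24h these fell on far fewer genes, 7877 to 10167 per library, against 17125 to 22370 at 18h, 20h and 22h. Between columns of the same group, log2 CPM correlated at as little as 0.572 at 24h, against 0.9125 or more earlier. The transcript that tracks the knockout in these libraries, the lincRNA Gm17382, had 0 to 0.198 CPM (counts scaled by library size) in 9 LoNA KO libraries and 30.1 to 791 CPM in 9 control libraries at 18h, 20h and 22h. No value is given for Gm17382 at 24h in either group, so this check could not be made at the time of the chromatin profiles. Markers of the two-cell embryo (7 genes) summed to 5047 to 8678 CPM in LoNA KO and 3883 to 4954 CPM in control libraries at 18h, and to 8205 to 10501 and 5563 to 5934 CPM at 24h, so that every LoNA KO library lay above every control at both times. At 20h the sums were 6999 to 10059 and 6759 to 13050 CPM and at 22h 4135 to 4500 and 3349 to 5485 CPM, with overlap, and the part of these markers in the results below was not tested. Over all times, markers of cumulus and granulosa cells summed to 0.554 to 78.8 and 0.0688 to 103 CPM.

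AcNPM1 peaks without H3K27me3 were small. They had a median width of 465 bases, against 748 bases for peaks with H3K27me3. Their median signal was 2.26 RPM (reads in the peak scaled by total reads) in LoNA KO and 2.18 RPM in control embryos, against 5.57 and 4.86 RPM at peaks with H3K27me3. Per kb of peak the medians were 4.84 RPM in LoNA KO and 4.83 RPM in control, against 7.64 and 6.68 RPM. When all AcNPM1 peaks were divided into 4 equal groups by height (mean RPM of both conditions), peaks without H3K27me3 made up 46.3% of the lowest group, 23.4% and 13.0% of the next, and 4.41% of the tallest.

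AcNPM1 at these peaks was nearly level between LoNA KO and control embryos. The median log2 ratio, LoNA KO over control, was 0.05, with an interquartile range of -0.20 to 0.27, and 54.9% of peaks were positive. At peaks with H3K27me3 the median was 0.17 and 72.2% were positive. Summed over all 2091 peaks, the signal was 7355 RPM in LoNA KO (exact Poisson 95% interval 7333 to 7376) and 6704 RPM in control (6676 to 6732). Over the 1083 kb covered this was 6.79 and 6.19 RPM per kb. The log2 ratio of the sums was 0.13, and 0.09 without the 4 peaks with the most reads. The direction of the median depends on scaling: divided by the reads in all AcNPM1 peaks instead of all reads, every ratio shifts down by 0.15 and the median becomes -0.10. The distance between both classes is the same under either scaling.

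**Figure D1:**
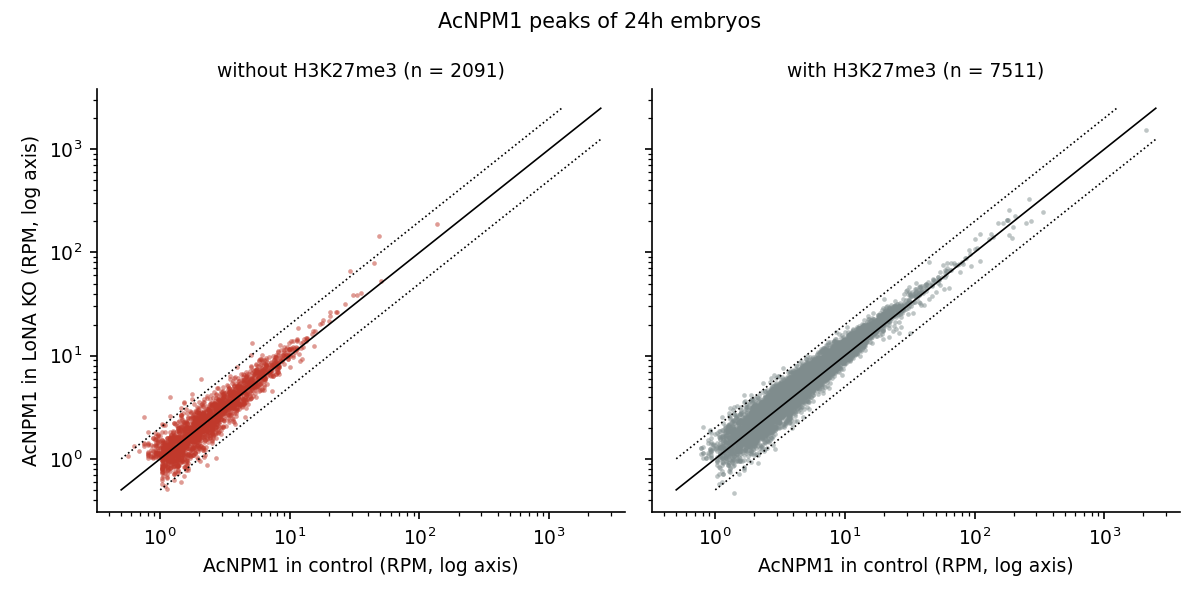
AcNPM1 signal in LoNA KO embryos (vertical axis, RPM, log scale) against control embryos (horizontal axis, RPM, log scale), with 1 point per peak; the left panel shows the 2091 peaks without H3K27me3 and the right panel the 7511 with it. The solid line marks equal values and the dotted lines a 2-fold difference, which 28 of the peaks on the left exceed.

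Ratios past 2-fold were rare. LoNA KO was at least 2-fold above control at 16 of 2091 peaks without H3K27me3 and at least 2-fold below at 12, together 1.34%, against 0.614% of all 9602 peaks. At peaks with H3K27me3 the counts were 22 and 9 of 7511. The height of a peak moved with its ratio: in the lowest of the 4 height groups the median log2 ratio was -0.06 at peaks without H3K27me3 and 0.02 at peaks with it. In the tallest group it was 0.18 and 0.21. Peaks without H3K27me3 had the lower median in each of the 4 groups, by less than the pooled medians differ. The part of read depth per peak in this was not tested.

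**Figure D2:**
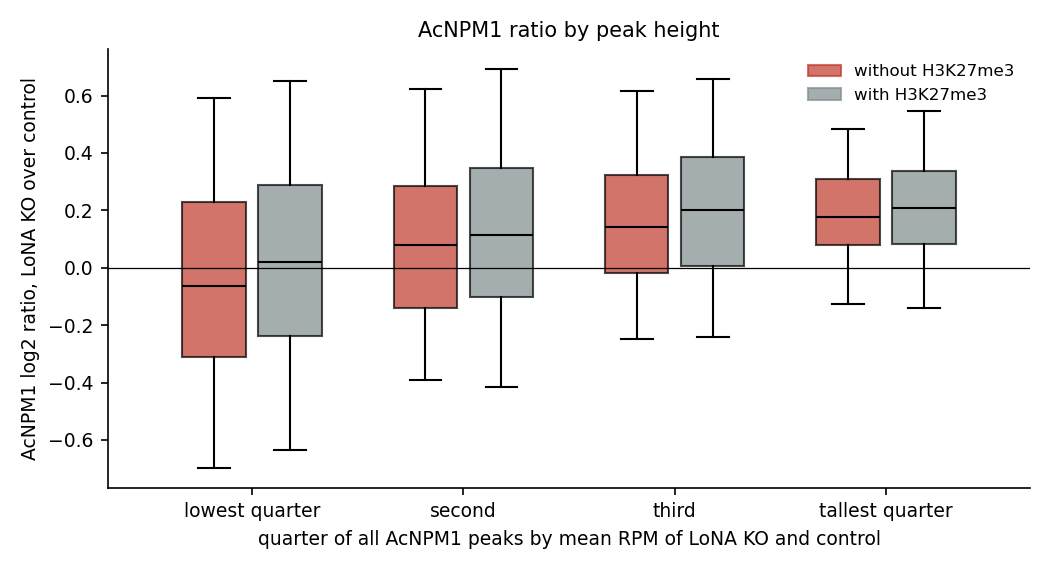
AcNPM1 log2 ratio, LoNA KO over control, for peaks without and with H3K27me3 in 4 equal groups of all peaks by mean RPM; boxes are interquartile ranges, lines medians, and whiskers run from the 5th to the 95th percentile. The medians without H3K27me3 go from -0.06 in the lowest group to 0.18 in the tallest, and those with H3K27me3 from 0.02 to 0.21.

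Most peaks without H3K27me3 lay away from genes' starts. A peak was placed by its distance to the nearest start (TSS) of a protein-coding gene, and 440 (21.0%) lay within 1 kb, of which 170 spanned the TSS itself. Among peaks with H3K27me3, 33.6% lay within 1 kb. Within 5 kb were 704 (33.7%), against 45.3% of peaks with H3K27me3, and beyond 50 kb were 671 (32.1%), against 25.8%. Of the peaks without H3K27me3, 42.5% lay in no annotated gene, against 33.1% of those with it. Peaks within 1 kb of a TSS were taller, with medians of 3.37 RPM in LoNA KO and 3.16 RPM in control, than those beyond 50 kb, with 1.58 and 1.59 RPM. Their median log2 ratios were 0.11 within 1 kb and -0.0036 beyond 50 kb.

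**Figure D3:**
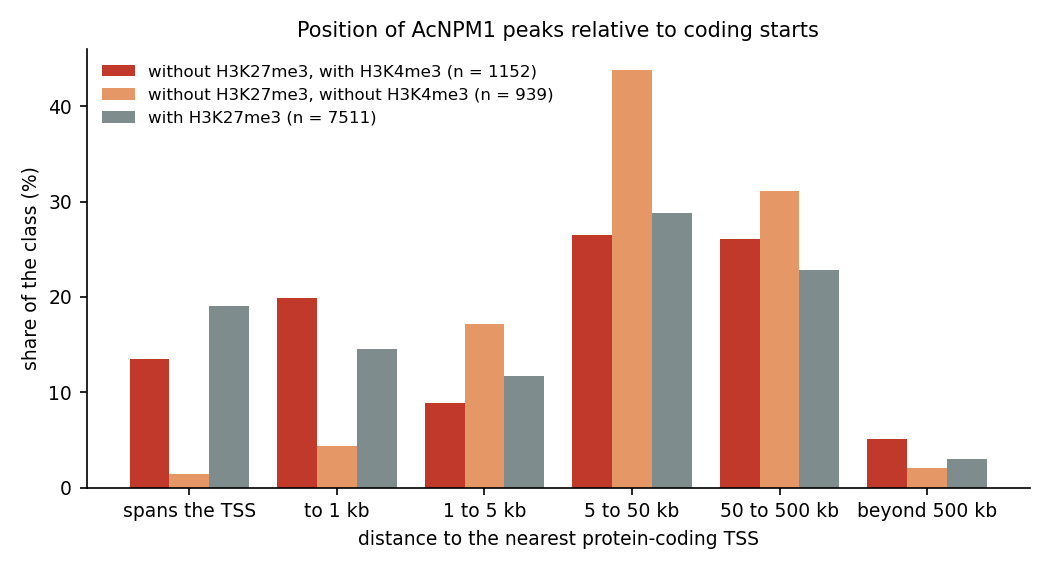
Share of each class of AcNPM1 peaks (vertical axis, percent of the class) by distance to the nearest protein-coding TSS, for 1152 peaks without H3K27me3 but with H3K4me3, 939 with neither mark and 7511 with H3K27me3. Peaks with neither mark are most often 5 to 50 kb from a TSS (43.8%), and 1.49% span one.

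H3K4me3 divided the peaks into 2 kinds, as it also did the peaks with H3K27me3. An H3K4me3 peak overlapped 1152 of 2091 (55.1%), against 79.9% of the peaks with H3K27me3, and in each of the 4 height groups the share was lower without H3K27me3 (52.7% to 64.2%) than with it (66.2% to 91.9%). Peaks with H3K4me3 but no H3K27me3 lay within 1 kb of a TSS in 33.4% of cases and had a median AcNPM1 log2 ratio of 0.08. Peaks with neither mark lay there in 5.86% of cases and had a median ratio of 0.01. Among peaks with H3K27me3, 40.3% of those with H3K4me3 and 6.87% of those without it lay within 1 kb of a TSS. Their median log2 ratios were 0.19 and 0.07. Beyond 500 kb from any coding TSS, 59 of 79 peaks without H3K27me3 carried H3K4me3, and the median log2 ratio of the 79 was -0.09. Of the peaks with H3K27me3 there, 191 of 226 carried H3K4me3. Scaled by total reads, the H3K4me3 under the 1152 peaks was itself a little lower in LoNA KO, with a median of 7.88 RPM against 8.40 RPM in control. H3K4me3 peaks held 39.3% of all reads in LoNA KO and 42.2% in control, so this drop depends on the scaling. The median log2 ratio of H3K4me3 was -0.11, as it was under peaks with H3K27me3, and -0.13 over all 48658 H3K4me3 peaks. Across the 1152 peaks the ratios of AcNPM1 and H3K4me3 had a Spearman correlation of 0.02, a description over peaks that share their libraries.

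The distance to H3K27me3 varied widely. It was 31309 bases at the median, 289 peaks lay within 1 kb of an H3K27me3 peak, and 849 lay beyond 50 kb. The nearest was 74 bases away, near Htra3, which encodes a secreted serine protease, with 5.56 RPM in LoNA KO and 4.46 RPM in control. Next was a peak near Sned1 at 82 bases, with 5.12 and 3.71 RPM. Just outside the rule were peaks with 8 bases covered, near Grin2a (an NMDA receptor subunit) with 7.53 RPM in LoNA KO and 5.55 RPM in control, and near E330009J07Rik with 4.05 and 3.15 RPM. The values of these few peaks overlapped between the sides of the rule. They do not describe the classes, whose medians in LoNA KO were 2.26 RPM without and 5.57 RPM with H3K27me3. By chromosome, the share of AcNPM1 peaks without H3K27me3 ran from 16.2% on chromosome 16 to 26.9% on chromosome 19, with 10 of 24 on chromosome Y.

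In the tallest of the 4 height groups, peaks without H3K27me3 had a median width of 771.5 bases, and 26.4% lay within 1 kb of a TSS. The 4 peaks with the most reads, by contrast, were narrow and far from coding starts. The highest, at chr6:103649048-103649296 (mm10, coordinates as deposited) inside Chl1, a neural cell adhesion gene, had 189.5 RPM in LoNA KO (11427 reads) and 135.7 RPM in control (4353 reads). The same 248 bases lay under an H3K4me3 peak of 415.6 RPM in LoNA KO and 353.2 RPM in control. The second, at chr12:3109872-3110119 in no annotated gene and 199850 bases from the TSS of Rab10, had 143.6 RPM in LoNA KO and 48.7 RPM in control. Its log2 ratio was 1.56 (95% interval 1.48 to 1.64), while the H3K4me3 peak over it had 299.5 RPM in LoNA KO and 326.7 RPM in control. The peak at chr16:98107456-98107765 had 78.2 and 44.5 RPM, and the one at chr1:195371722-195371969 had 65.4 and 29.3 RPM, in LoNA KO and control. All 4 of these peaks were higher in LoNA KO and overlapped H3K4me3. Per kb, the Chl1 peak had 764 RPM in LoNA KO and 547 RPM in control, against class medians of 4.84 and 4.83 RPM. Its H3K4me3 was likewise far above the medians of 7.88 and 8.40 RPM. Input controls and the handling of reads that map to several places are not given in the sources used here. Their part in the height of these 4 peaks was not tested. Another of the 10 with the most reads, at chr6:47677529-47677921, had 31.7 RPM in LoNA KO and 26.6 RPM in control, and its nearest coding start was that of Ezh2, the catalytic subunit of PRC2, at 82188 bases.

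The remaining 5 of the 10 peaks with the most reads lay in the array of 5S ribosomal RNA genes on chromosome 8. The 5S RNA is the ribosomal RNA made by RNA polymerase III outside the nucleolar rRNA repeats. RefSeq places 48 copies between 123538784 and 123622046, and within 5 kb of them were 41 AcNPM1 peaks, 7 without and 34 with H3K27me3. The 7 had 16.3 to 52.5 RPM in LoNA KO and 14.8 to 50.7 RPM in control, far above the median of the class. Scaled by total reads, each was higher in LoNA KO, by a log2 ratio of 0.05 to 0.36. The 95% interval held 0 at chr8:123544672-123545509 (0.05, -0.04 to 0.14) and at chr8:123558933-123559166 (0.13, -0.03 to 0.29). Divided by the reads in all AcNPM1 peaks, every ratio shifts down by 0.15, so the smallest of them change sign. Per kb the 7 matched their neighbours, with medians of 74.4 RPM in LoNA KO and 64.6 RPM in control, against 75.5 and 66.9 RPM for the 34 with H3K27me3. They lay 256 to 1046 bases from H3K27me3, and 1 of the 7 covered a 5S gene, Gm22291. The copies are near identical, so reads may be shared between them, and how such reads were assigned is not given in the sources used here.

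**Figure D4:**
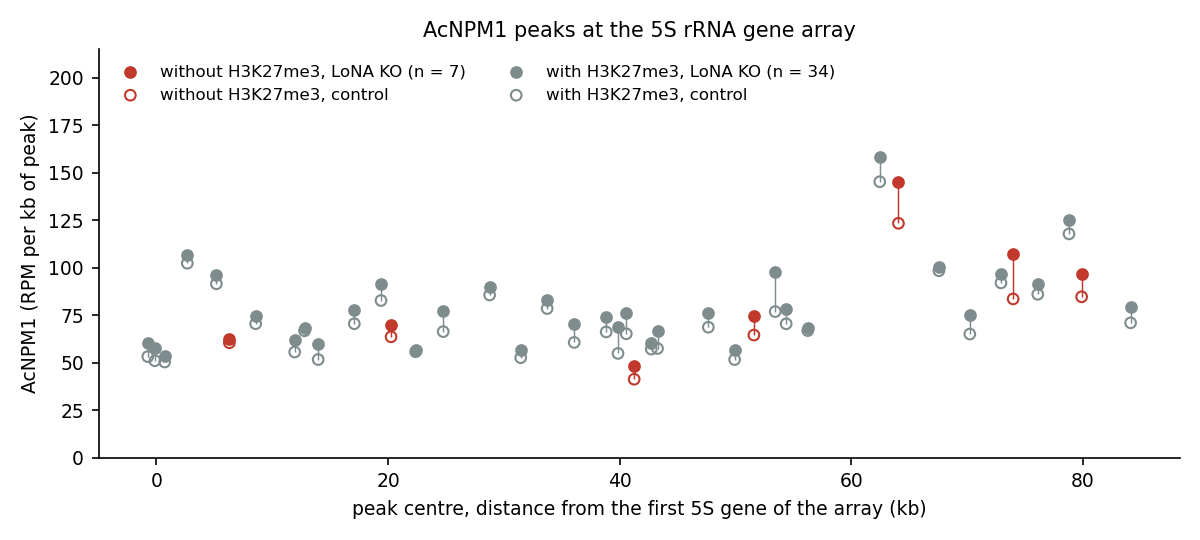
AcNPM1 signal per kb of peak (vertical axis, RPM per kb) for the 41 peaks at the 5S rRNA gene array, by distance of the peak centre from the first 5S gene (horizontal axis, kb); filled points are LoNA KO, open points control, and a line joins both values of a peak. The 7 peaks without H3K27me3 lie among the 34 with it, and every filled point lies above its open one with signal scaled by total reads.

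Other small RNA genes under these peaks were few. Both of the aspartate tRNA genes n-TDgtc7 and n-TDgtc6 on chromosome 1 lay under a peak with H3K4me3, with 13.5 RPM in LoNA KO and 12.7 RPM in control at the first, and 19.3 and 14.0 RPM at the second. The log2 ratio at n-TDgtc6 was 0.46 (95% interval 0.30 to 0.62). Of 1228 miRNA genes, 3 lay under such a peak: Mir34b, Mir8117 and Mir187. At Mir34b, a microRNA gene that p53 activates, the peak chr9:51103391-51104404 had 5.59 RPM in LoNA KO and 4.74 RPM in control and lay wholly under H3K4me3. At Mir8117 the values were 1.46 and 1.62 RPM, and at Mir187 1.48 and 1.40 RPM. The mature sequences of the first pair, from RefSeq (GRCm38.p6), are shown with the seed (bases 2 to 8) in capitals. The 3 seeds differ, but that of miR-34b-3p is also the seed of miR-34c-3p, from the neighbouring Mir34c outside the peak.
miR-34b-5p: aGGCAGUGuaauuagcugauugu
miR-34b-3p: aAUCACUAacuccacugccauc
miR-8117: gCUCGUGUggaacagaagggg

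The 5 peaks with the highest ratio, chr12:3109872-3110119 among them, were narrow and distal. The peak nearest to Dpy19l1 had 2.57 RPM in LoNA KO (155 reads) and 0.748 RPM in control (24 reads), a log2 ratio of 1.78 (95% interval 1.15 to 2.47). A peak inside Plcb4, a phospholipase C gene, had 3.95 and 1.18 RPM, a peak inside Megf11 5.89 and 2.06 RPM, and a peak 368159 bases from Galnt5 13.2 and 5.11 RPM. The lowest ratios came from few reads. A peak inside Cspp1, a gene of the centrosome and cilium, had 53 reads in LoNA KO and 74 in control, with 0.879 and 2.31 RPM. Peaks inside Pcdh12, Csmd2 and Ulk4 and one on chromosome Y had 31 to 61 reads in LoNA KO and 36 to 87 in control, with log2 ratios of -1.42 to -1.13. The 5 highest and 5 lowest were picked by these ratios, so the values are a description.

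In LoNA KO embryos given the p300 inhibitor, AcNPM1 was again close to its level without it. A separate table of 11745 peaks holds inhibitor-treated and untreated LoNA KO, and 1145 of the 2091 peaks (54.8%) overlapped one of its peaks, against 90.7% of those with H3K27me3. At these 1145 the medians were 2.51 RPM with inhibitor and 2.67 RPM without, and the median log2 ratio was -0.07, against -0.10 at peaks with H3K27me3 and -0.08 over the whole table. Peaks of that table held 7.42% of all reads with inhibitor and 7.88% without, so the direction of the -0.07 depends on scaling by total reads. A signal at least 2-fold lower with inhibitor was seen at 9 of the 1145 and one at least 2-fold higher at 0, beside 0.528% of the whole table past 2-fold either way. This comparison shares its LoNA KO values with the one above. For the peaks picked for a high ratio, the inhibitor-treated values were 1.03 RPM against 3.32 RPM untreated inside Plcb4, 5.34 against 13.2 RPM near Galnt5, and 99.8 against 143.8 RPM at the chromosome 12 peak. These peaks were picked for high LoNA KO over control, and the same LoNA KO reads are the untreated side here. The choice itself favours a lower value with inhibitor, so the values are a description only. The 946 peaks with no peak in the inhibitor table were lower in both conditions (1.84 RPM in LoNA KO and 1.93 RPM in control at the median), with a median log2 ratio, LoNA KO over control, of -0.05.

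Of the gene groups examined, developmental regulators were the group most often near a peak without H3K27me3. A peak within 5 kb of the TSS was found for 8 of 44 (18.2%), against 717 of 20022 coding genes (3.58%). The other AcNPM1 peaks, those with H3K27me3, were within 5 kb of 29 of the 44 (65.9%), against 15.9% of coding genes, and 4 of the 8 had both kinds. Of 28 two-cell genes, 1 had such a peak. None of 21 maternal oocyte genes, 32 ribosome biogenesis genes, 76 cytosolic ribosomal protein genes, 60 histone genes, 18 pluripotency genes and 20 genome activation and housekeeping genes did.

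The 8 developmental regulators encode transcription factors and 1 signal, and AcNPM1 there was close to level in both conditions. Pax3, a factor of neural crest and muscle precursors, had a peak over its TSS at chr1:78196928-78197285 with 5.12 RPM in LoNA KO and 4.86 RPM in control, under H3K4me3 of 6.45 and 7.81 RPM. Gata2, a factor of blood precursors, had a peak 222 bases from its TSS with 6.95 and 6.05 RPM. Lhx5, a LIM homeobox factor of the forebrain, had 6.10 and 5.64 RPM at 394 bases, and Tbx5, a factor of heart and forelimb, had 6.92 and 5.89 RPM at 1240 bases. Hoxa13, a factor of limb ends and hindgut, had 10.7 and 10.97 RPM at 721 bases, and Wnt1, a signal of the midbrain, 11.9 and 12.2 RPM at 983 bases. Foxa2, a factor of endoderm, had 5.79 and 6.42 RPM at 3068 bases, and Gata6, a factor of primitive endoderm, 7.28 and 6.83 RPM at 4939 bases. The 95% interval of the log2 ratio held 0 at every one of these peaks. H3K27me3 peaks lay 576 to 7264 bases from these peaks. Duxf3 (Dux), which activates two-cell genes, had a peak 4337 bases from its TSS with 5.19 RPM in LoNA KO and 6.30 RPM in control, and it lies in a repeated gene array. The log2 ratio of this peak was -0.28, with a 95% interval of -0.54 to -0.02 that did not hold 0. Within 5 kb of the Duxf3 TSS lay 2 AcNPM1 peaks with H3K27me3 as well.

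RNA of these regulators was scarce. The highest value in any library at 18h, 20h or 22h was 7.24 CPM, for Tbx5 in a control library at 20h. At 24h Pax3 reached 34.3 CPM in 1 control library and had 0 and 0.0616 CPM in LoNA KO and 0 CPM in the other control library. Pax3 had 97, 0 and 0 counts in LoNA KO and 11, 18 and 84 in control libraries at 18h, so a single library of LoNA KO held all of its counts and the groups overlapped. Gata2 had 46, 5 and 0 counts in LoNA KO and 1, 74 and 80 in control at 18h, again with overlap. Wnt1 and Foxa2 had fewer than 1 CPM as the mean of each group at 18h and 20h. Duxf3 had 7.23, 18.0 and 6.84 CPM in LoNA KO and 1.74, 3.86 and 5.13 CPM in control at 18h, with no overlap, but its log2 change of 1.58 ± 0.70 (SE) had an edgeR adjusted p of 0.967. At 20h it was 3.54, 0.529 and 1.34 CPM in LoNA KO and 12.6, 2.27 and 0.676 CPM in control. At 22h it was 20.3, 7.17 and 2.37 CPM in LoNA KO and 4.04, 9.50 and 1.16 CPM in control, with a log2 change of 1.02 ± 0.83 (SE; edgeR adjusted p = 1), and the groups overlapped at both 20h and 22h.

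Genes next to these peaks were detected over a somewhat higher range than genes at other AcNPM1 peaks and a lower one than all coding genes. Each library holds RNA of whole embryos, so fewer cells with a transcript and less of it per cell cannot be told apart. Detection was scored as at least 1 CPM, and as transcript lengths were not used here, levels of different genes are not compared. Among 374 genes whose TSS had a peak without H3K27me3 within 1 kb and no other AcNPM1 peak, 46.8% to 54.5% were detected in LoNA KO and 52.7% to 56.4% in control libraries at 18h. Among 2360 genes with only AcNPM1 peaks that carry H3K27me3, the shares were 39.9% to 48.8% and 47.2% to 48.5%, and over all coding genes 53.2% to 59.5% and 59.3% to 59.8%. At 24h the shares were 15.5% to 23.0% in LoNA KO and 17.4% to 24.1% in control for the 374, 15.2% to 18.8% and 17.2% to 21.1% for the 2360, and 23.5% to 28.7% and 24.9% to 31.4% over all coding genes. The 24h libraries held counts for 7877 to 10167 genes, against 17125 to 22370 before, so shares are not compared between times. The 335 genes whose peak had H3K4me3 were detected more often (47.8% to 56.4% in LoNA KO and 54.0% to 57.9% in control at 18h) than the 39 whose peak had none (28.2% to 38.5% and 41.0% to 43.6%).

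No gene near these peaks passed the test between LoNA KO and control at any time. The nearest coding genes within 5 kb were 667, of which 354, 305, 340 and 133 could be tested at 18h, 20h, 22h and 24h. The 667 are among the 717 coding genes with such a peak within 5 kb. Of those 717, 235 also had an AcNPM1 peak with H3K27me3 within 5 kb, and genes with both kinds were kept. With edgeR's quasi-likelihood test and adjustment over all genes tested, 0 of the nearby genes passed at each time, beside 0.00649%, 0.0138%, 0.00656% and 0% of all genes, so the test made hardly any calls anywhere. At an unadjusted p under 0.05 there were 18, 8, 9 and 8, beside 5.14%, 3.66%, 3.15% and 5.16% of all genes. DESeq2 called 3 of 413, 0 of 394, 0 of 433 and 21 of 177 (0.726%, 0%, 0% and 11.9%), beside 0.586%, 0.13%, 0.0312% and 13.5% of all genes. The LoNA KO and control libraries did not overlap for 41, 38, 28 and 51 of the genes (11.6%, 12.5%, 8.24% and 38.3%), beside 12.8%, 9.87%, 9.23% and 33.3% of all genes. Median log2 changes of the nearby genes were -0.02, 0.03, -0.0062 and 0.07 at the 4 times, and -0.02, -0.03, -0.0021 and 0.02 over all genes. The groups had 3 libraries each at 18h, 20h and 22h and 2 each at 24h, whereas the labels list 4 RNA samples per group at each time. Whether they came from separate pools of embryos is not stated, so p-values measure the spread between these libraries.

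The 3 genes called by DESeq2 at 18h were Mt1, Sall3 and Mboat1, and they were named after their values were seen. Mt1, which encodes the metal-binding protein metallothionein, had 1548, 1422 and 212 counts in LoNA KO and 62, 214 and 239 in control, so 1 LoNA KO library lay among the controls in raw counts, though above them in CPM. Its edgeR log2 change was 2.76 ± 0.64 (SE) with an adjusted p of 0.744 after the filter on low counts. Mboat1, a lysophospholipid acyltransferase gene, had 0, 0 and 0 counts in LoNA KO and 31, 54 and 29 in control. Sall3, a zinc finger factor of the Spalt family, had 1, 87 and 42 in LoNA KO and 0, 0 and 0 in control. At 24h, 9 of the 21 genes called by DESeq2 had all of their counts in a single library, such as Pts with 1427 and 0 in LoNA KO and 0 and 0 in control. Foxc2 had 0 and 0 in LoNA KO and 0 and 551 in control. In the same 24h libraries markers of trophectoderm and later embryo (5 genes) summed to 0 to 0.0707 CPM in LoNA KO and 103.0 to 103.1 CPM in control, and blood markers to 1.27 to 160.8 and 13.8 to 17.1 CPM. Their part in the 24h values was not tested.

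Ranked by CPM at 24h, with no correction for transcript length, the first 10 genes with a peak within 1 kb of the TSS were Commd3, Cdv3, Mapk8, Tnfaip8, Rasa2, Cnn1, Sptssb, Cyth1, Smarca5 and Rin3. Commd3, a member of the COMMD family of trafficking proteins, had 874.1 and 820.3 CPM in LoNA KO and 393.1 and 739.7 CPM in control. All LoNA KO values were the higher ones, and the log2 change was 0.58 ± 0.61 (SE; edgeR adjusted p = 1). With 2 libraries per group at 24h, the groups did not overlap for 33.3% of all genes. Its peak at chr2:18671910-18672345, the one over the sequence printed above, had 4.48 RPM in LoNA KO and 2.99 RPM in control. Mapk8, which encodes the stress kinase JNK1, had 321.1 and 571.1 CPM in LoNA KO and 83.8 and 529.6 CPM in control, with overlap, and its peak had 4.11 and 2.68 RPM. Cdv3 had the largest peak ratio of the 10, with 2.12 RPM in LoNA KO and 1.09 RPM in control, a log2 ratio of 0.96, and RNA of 638.3 and 445.0 CPM in LoNA KO and 210.0 and 614.3 CPM in control. Rin3, which encodes a Rab5 exchange factor, had a peak of 6.07 and 3.96 RPM and RNA of 156.2 and 145.1 CPM in LoNA KO and 142.3 and 190.8 CPM in control.

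For the other 6 the peak and the RNA were also given side by side, and the groups overlapped at Cnn1, Cyth1 and Smarca5. At Rasa2, Tnfaip8 and Sptssb they did not, with LoNA KO the lower, beside 33.3% of all genes without overlap at 24h. Rasa2, a Ras GTPase-activating protein gene, had 373.2 and 133.8 CPM in LoNA KO and 395.4 and 426.1 CPM in control, with a peak of 3.22 and 2.09 RPM. It was the only one of the 10 whose peak overlapped no H3K4me3, the nearest lying 432 bases away. Tnfaip8 had 170.4 and 357.2 CPM in LoNA KO and 380.3 and 424.6 CPM in control, with a peak of 2.42 and 2.24 RPM. Sptssb, a subunit of serine palmitoyltransferase, had 174.5 and 126.9 CPM in LoNA KO and 177.8 and 190.2 CPM in control, with a peak of 2.44 and 2.74 RPM. It also had an AcNPM1 peak with H3K27me3 within 1 kb of its TSS. Smarca5, the ATPase of the ISWI remodellers, had 52.7 and 260.0 CPM in LoNA KO and 64.3 and 275.2 CPM in control, with a peak of 1.58 and 1.71 RPM. Cyth1, an ARF exchange factor gene, had 307.5 and 98.3 CPM in LoNA KO and 82.1 and 167.3 CPM in control, with a peak of 3.08 and 3.65 RPM. Cnn1, the gene of smooth muscle calponin, had 273.7 and 5.05 CPM in LoNA KO and 220.4 and 204.8 CPM in control, with a peak of 3.90 and 2.99 RPM. The edgeR adjusted p was 1 for each of the 10 at 24h.

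**Figure D5:**
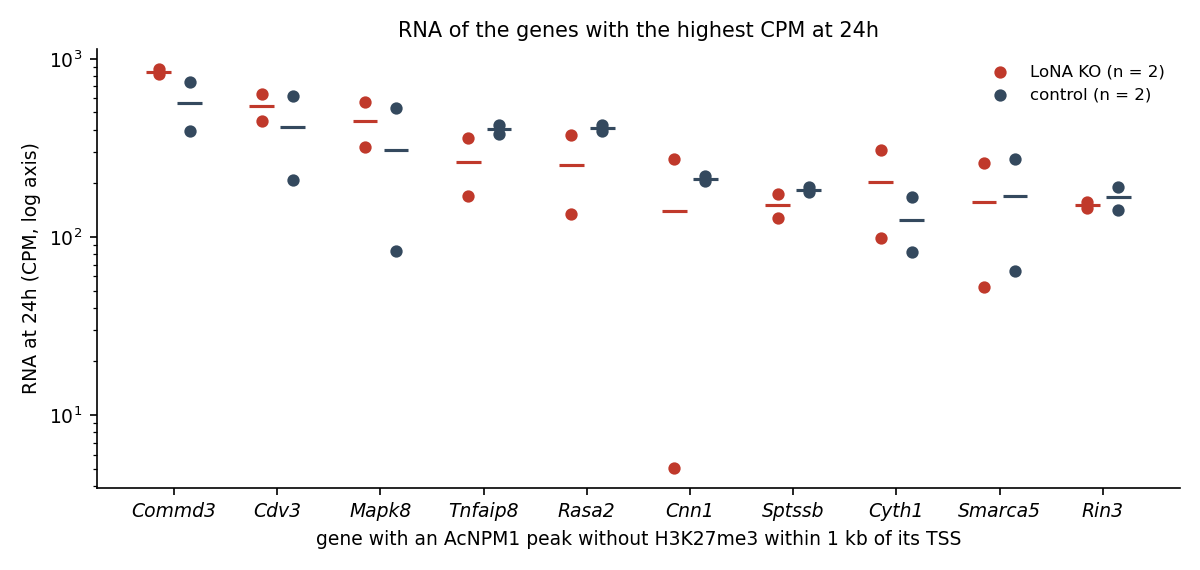
RNA at 24h (vertical axis, CPM, log scale) of the 10 genes with the highest mean CPM among those with an AcNPM1 peak without H3K27me3 within 1 kb of the TSS; points are the 2 libraries of each group, LoNA KO on the left and control on the right of each gene, and bars are means. Commd3 lies at 874.1 and 820.3 CPM in LoNA KO and at 393.1 and 739.7 CPM in control, and Cnn1 at 273.7 and 5.05 CPM in LoNA KO.

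At 18h, 20h and 22h none of these 10 genes passed the edgeR test either (adjusted p 0.885 to 1). LoNA KO and control did not overlap in 6 of the 30 pairs of gene and time. LoNA KO was above control in 5 of them, Commd3 at 18h and 20h, Tnfaip8 and Cyth1 at 18h and Rin3 at 20h, and below it in 1, Cnn1 at 22h. Over all genes, the groups did not overlap for 12.8% at 18h, 9.87% at 20h and 9.23% at 22h. Some gaps were narrow. The lowest LoNA KO and highest control values were 379.6 and 378.9 CPM for Tnfaip8 at 18h, and 288.3 and 287.7 CPM for Commd3 at 20h. Commd3 averaged 272.5 ± 46.0 CPM in LoNA KO and 195.0 ± 31.8 CPM in control at 18h, 349.8 ± 94.5 and 269.9 ± 15.9 CPM at 20h, and 162.6 ± 47.4 and 150.5 ± 59.1 CPM at 22h (SD, n = 3 each), with edgeR adjusted p of 1, 0.998 and 1. It was higher in LoNA KO in mean at each of these times and at 24h. Cyth1 had 95.3, 171.2 and 59.4 CPM in LoNA KO and 59.0, 47.2 and 52.5 CPM in control at 18h, with no overlap, and a log2 change of 1.04 ± 0.39 (SE) with an edgeR adjusted p of 0.885. At 22h it had 24.5, 43.8 and 53.8 CPM in LoNA KO and 42.6, 45.0 and 53.7 CPM in control, so the direction seen at 18h was not there. Smarca5 had 93.8, 160.9 and 72.9 CPM in LoNA KO and 84.6, 44.8 and 92.4 CPM in control at 18h, with overlap.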

How the data were processed

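The deposited peak tables give, for each called region, raw read counts in the peak, RPM (reads scaled by total reads) and the authors' log2 ratio of both conditions. Total reads stand there as a constant column. The deposited RNA tables hold raw counts per gene, and the authors' mean signal and fold or log2 columns were not used. Per the submitters' processing notes, the build is mm10, and Bowtie2 2.1.0, bcl2fastq 2.2 and MACS2 2.1.1 (chromatin) and Bowtie2 2.2.3, HISAT2 2.1.0 and HTSeq 0.6.0 (RNA) were named, without roles. Peak input controls and filters are not given in the sources used here.

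An overlap of 1 base counted as shared. TSS came from gene positions and biotypes in the count tables (20022 coding genes); 276 of 37525 genes had positions that differ between tables, and the first table was followed. Intervals of ratios are exact binomial, from counting error only. Counts were fitted per time with edgeR 4.0.16 (TMM, filterByExpr, quasi-likelihood test, Benjamini-Hochberg over all genes, threshold 0.05) in R 4.3.3; DESeq2 1.42.0 was the alternative. CPM use TMM-scaled library sizes. At 24h, columns of a group correlating above 0.99 were summed, leaving 2 libraries per group. Columns were not tied to labelled replicate numbers. The mESC samples were not analysed here. The RNA code was tested on simulated data.

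Named peaks are the 10 with the most reads and the 5 highest and 5 lowest ratios with at least 50 reads. Named genes are the 10 with a peak within 1 kb and the highest mean CPM at 24h, genes near a peak that pass at any time, and list genes with a peak within 5 kb. The peaks and lists were chosen with earlier results of these data known.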

Additional observations from a re-analysis of the deposited data

How the results depend on the processing

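Counting only H3K27me3 cover of at least 50% gave 2208 peaks and counting H3K27me3 within 5 kb as shared gave 1576, with 278 at a TSS and a median log2 ratio of 0.0211. Scaling by reads in peaks made the median -0.10, by construction. A TSS window of 5 kb gave 704 peaks and spanning the TSS gave 170. A minimum of 200 reads, chosen after seeing the data since every peak has at least 50, left 1086 peaks, 627 of them with H3K4me3, and a median of 0.12. RefSeq starts, also added later, gave 401 peaks at a TSS. For nearby genes, DESeq2 called 3 at 18h and 21 at 24h. No filter on low counts called 1 at 18h (Mt1) and 1 at 22h (Gm2a, with 556, 20 and 60 counts in LoNA KO and 2, 27 and 14 in control). The cause was not tested. Leaving out each library in turn gave 0 to 0 calls at every time, at 24h with the lone library assumed to vary like the others. The replicate block gave 0 calls at 18h, 20h and 22h. Columns with the same number correlated at -0.13 to 0.11 in their deviations, and 0 of 6, 2 of 6 and 1 of 6 correlated best with their own number, so the numbers were not taken to pair samples. No block was fitted at 24h, where columns were summed. Most peaks have few reads (median 136 in LoNA KO and 70 in control), which limits single ratios.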
